A study of Mus musculus with 4 samples.

Results

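NKT-like T cells with Zbtb16 were described here, among CD45+ cells sorted from mouse liver and profiled by single-cell RNA-seq. Zbtb16 encodes PLZF, the transcription factor that sets the innate-like programme of natural killer T (NKT) cells. The cells were chosen by measured values, their own unique molecular identifiers (UMIs, 1 per captured transcript). A member carried at least 1 UMI each of Zbtb16, Cd3e and Trac, and no UMI of Trdc, Cd8a, Cd8b1, Foxp3 or Csf1r. It also had 600 to 6000 detected genes, at most 5% mitochondrial UMIs and at least 3000 UMIs. The rule took 1406 cells of 39121 in the files, which is 4.29% of the 32738 cells that passed the limits on genes, mitochondrial share and UMIs.

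The study asked how the microRNA miR-146a and the chemokine CCL5 shape the immune cells of the liver during hepatocellular carcinoma. It has 4 libraries of 5' single-cell RNA, 1 per condition, all from female mice on the C57BL/6 background. The young wild-type (young WT) library came from mice of about 8 weeks that had no carcinogen and no special diet. The other libraries came from 36-week-old mice given diethylnitrosamine (DEN, 25 mg/kg, intraperitoneally on day 14) and a high-fat, choline-deficient diet (CDHFD) from weaning on day 21. These are DEN-CDHFD WT, DEN-CDHFD miR-146a-/- and DEN-CDHFD DKO, the last lacking both miR-146a and Ccl5 (miR-146a-/- Ccl5-/-). Both knockouts are germline, so every cell of the animal carries them, and the number of mice behind a library is not given in the sources used here. Age, carcinogen and diet all differ between young WT and DEN-CDHFD WT and cannot be told apart. With 1 library per condition no difference has a replicate check, so no test was made, and all intervals (95%) cover counting error only. Runs of 4 values are given in the order young WT, DEN-CDHFD WT, DEN-CDHFD miR-146a-/- and DEN-CDHFD DKO.

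NKT cells are T cells that recognise lipids on CD1d through a nearly invariant antigen receptor. In mice, the alpha chain joins the V segment Trav11 to Traj18, and the beta chain uses mostly Trbv13-2, Trbv29 or Trbv1. They settle in the liver sinusoids, where CXCR6 holds them, and they release IL-4 and interferon-gamma within hours of activation. Zbtb16 is also expressed in mucosal-associated invariant T (MAIT) cells and in some gamma-delta T cells, and the rule used no antigen receptor V segment.

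The libraries held 90756272, 103165826, 88706063 and 103147246 UMIs in 10985, 9120, 8393 and 10623 cells. The NKT-like cells held 9846485, 1059356, 837591 and 936057 UMIs, so values in young WT rest on far more counts than those in the treated libraries. Their median depth was 7795, 9581, 8225.5 and 7639.5 UMIs a cell, and their median mitochondrial share was 1.07%, 1.18%, 1.17% and 1.11%. Between 109 and 150 cell barcodes were shared by any pair of libraries, 745 barcodes in all occurred in more than 1 library, and 1 of these was an NKT-like cell in both young WT and DEN-CDHFD WT.

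The sequences that bear on the identity of these cells and on the knockout are shown first. The mature miR-146a is printed with its seed (bases 2 to 8) in capitals, since it is the molecule missing in the knockout libraries. It lies at chr11:43374435-43374456 on the minus strand (RefSeq, GRCm38.p6) and was itself not measured, since 0 of the features in the files carry a Mir146 symbol. Trav11 and Trav11d are the V segment genes of the invariant alpha chain, on the plus strand at chr14:53519303-53519859 and chr14:52824357-52824912 (GENCODE vM21, GRCm38), each with 2 exons. The last 30 bases of each are shown, from chr14:53519830-53519859 and chr14:52824883-52824912. The transcripts of 343 and 342 bases were identical over all 342 bases compared, and the capital marks the 1 extra base of Trav11. A read from inside the segment fits both copies, and the pair was counted together. Nearly all of its UMIs stand under Trav11 in the files, and any reads dropped as ambiguous would be missing from the shares below.
mmu-miR-146a-5p: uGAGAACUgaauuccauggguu
Trav11: acactgccacctacatctgtgtggtgggcG
Trav11d: gacactgccacctacatctgtgtggtgggc

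The targeted gene was examined first. Ccl5, a T cell chemoattractant, stood at 3245, 4975, 5556 and 48.1 CPM (UMIs of the gene scaled to a common total, from the summed UMIs of the NKT-like cells). The DKO library was far below the others, as its label requires. Its 45 UMIs lay in 32 of 104 cells (30.8%), beside 11.5% of B cells of that library, a cell type with little Ccl5 of its own. Both shares are unthinned, at median depths of 7639.5 and 7045.5 UMIs. By level, Ccl5 stood at 22.0 CPM in those B cells. After every cell was thinned to 3000 UMIs the NKT-like share was 12.5%, which is not comparable with the unthinned B cell share. The Ccl5 UMIs of DKO were not traced to a source.

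NKT-like cells made up a large share of the young liver library and a small share of each treated library. There were 1111 such cells of 8932 in young WT (12.4%, exact binomial interval 11.8 to 13.1%) and 103 of 7472 in DEN-CDHFD WT (1.38%, 1.13 to 1.67%). The miR-146a-/- library held 88 of 7282 (1.21%, 0.970 to 1.49%) and the DKO library 104 of 9052 (1.15%, 0.940 to 1.39%). Young WT supplied 79.0% of all NKT-like cells. The share in DEN-CDHFD WT was 0.111 times that in young WT, a difference of -11.1 percentage points (Newcombe interval -11.8 to -10.3). Its size depended on the rule. The young WT and DEN-CDHFD WT shares were 4.52% and 0.388% (-4.13 points) with every cell thinned to 3000 UMIs and 6.95% and 0.642% (-6.31 points) with at least 2 Zbtb16 UMIs. With Trav11 or Trav11d in place of Zbtb16 they were 2.58% and 0.482% (-2.09 points). Between the treated libraries the differences were small and within counting error. The miR-146a-/- share minus that in DEN-CDHFD WT was -0.170 points (-0.538 to 0.198), and the DKO share minus that in miR-146a-/- was -0.0595 points (-0.402 to 0.271).

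Young WT was also highest when the denominator was narrowed to T cells, while DKO was then the highest of the treated libraries. Of cells with a Cd3e UMI, 20.2%, 2.31% (1.89 to 2.79), 2.05% (1.64 to 2.51) and 2.52% (2.06 to 3.04) were NKT-like. The intervals of the treated libraries overlapped, so their order lay within counting error. The gap between young WT and the treated libraries was made at several steps of the rule. In young WT, 2261 cells carried Cd3e and Trac UMIs and none of Trdc, Cd8a or Cd8b1, against 745, 925 and 866 in the treated libraries. After Foxp3 and Csf1r, 2064, 568, 578 and 528 cells were left to be divided by Zbtb16. Of these, 53.8% (51.6 to 56.0), 18.1% (15.05 to 21.6), 15.2% (12.4 to 18.4) and 19.7% (16.4 to 23.3) carried it. Both the pool of such T cells and the part of it with Zbtb16 were thus larger in young WT. The share with Zbtb16 differed by -35.7 points (-39.3 to -31.7) between DEN-CDHFD WT and young WT, and by -2.91 points (-7.23 to 1.41) between miR-146a-/- and DEN-CDHFD WT. In DKO it was 4.47 points above that in miR-146a-/- (-0.00112 to 8.98).

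**Figure D1:**
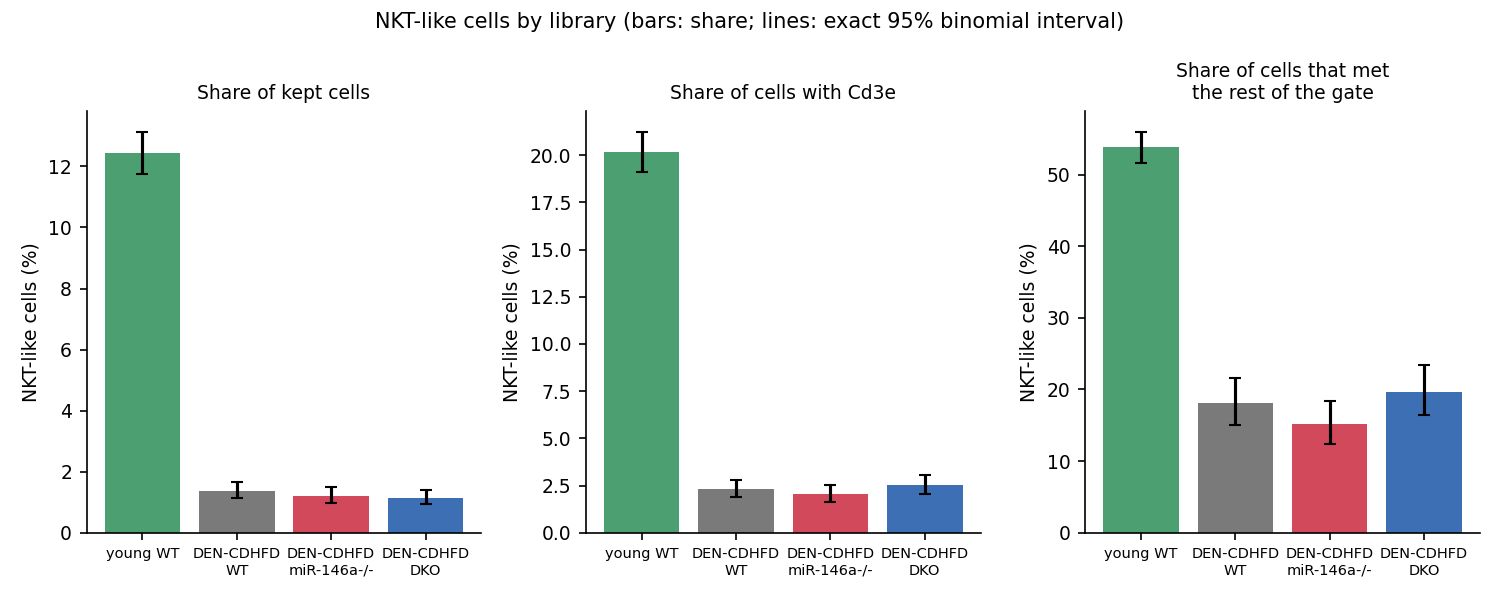
NKT-like cells as a percentage of all kept cells, of cells with a Cd3e UMI, and of cells that met every other condition of the rule, with 1 bar per library and lines for the exact 95% binomial interval. Young WT stands at 12.4%, 20.2% and 53.8%, above the treated libraries in each panel.

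The rule has a threshold in Zbtb16 and another in depth. Of the cells that met all its other conditions in young WT, 953 had no Zbtb16 UMI, 490 had 1, 281 had 2 and 340 had 3 or more. Cells just outside the threshold already carried NKT features at lower rates. With 0, 1, 2 and 3 or more Zbtb16 UMIs, Trav11 or Trav11d was found in 8.08%, 12.2%, 14.2% and 15.6% of cells. Cxcr6 was found in 74.2%, 94.5%, 97.9% and 97.1%, and Il4 in 28.9%, 55.1%, 61.6% and 59.1%. Median depth rose along the same order, from 6949 to 7265, 7801 and 8824.5 UMIs, and its part in these shares was not tested. In the treated libraries the step from 0 to 1 UMI was steeper for Trav11 or Trav11d, from 4.30% to 18.2% in DEN-CDHFD WT, from 2.86% to 13.2% in miR-146a-/- and from 4.72% to 12.3% in DKO. The shares at 1 UMI rest on only 55, 53 and 57 cells. In DEN-CDHFD WT the share did not rise steadily, at 8.00% of 25 cells with 2 UMIs and 17.4% of 23 cells with 3 or more. By depth, cells in the range just under the limit of 3000 UMIs met the rest of the rule at 5.99%, 0.631%, 1.63% and 0.765%. Cells in the range just above it did so at 5.85%, 0.683%, 0.946% and 1.08%, and those with 6000 or more at 14.9%, 1.55%, 1.38% and 1.30%. Young WT had the highest share in every range of depth.

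The label was checked against the V segments of the antigen receptor, which the rule did not use. Trav11 or Trav11d was read in 13.8% (11.8 to 15.9), 15.5% (9.15 to 24.0), 17.0% (9.87 to 26.6) and 14.4% (8.30 to 22.7) of NKT-like cells. Conventional CD4 T cells of the same library, which met the same rule but had a Cd4 UMI and no Zbtb16, carried it in 6.42%, 3.30%, 1.42% and 1.28%. B cells, which lack it, carried it in 0.167%, 0, 0 and 0 (0 of 702, 480 and 742 cells). The invariant segment was therefore more frequent in NKT-like cells than in both other populations of every library. Thinned to 3000 UMIs, the NKT-like shares were 5.04%, 5.83%, 10.2% and 7.69%, against 3.21%, 1.65%, 0.570% and 0.426% of CD4 T cells. The thinned gap was thus narrowest in young WT. An alpha V segment of any kind was read in only 53.1%, 53.4%, 53.4% and 50% of NKT-like cells, against 75.2%, 83.0%, 89.5% and 87.7% of CD4 T cells. Counted over alpha V segment UMIs instead of cells, Trav11 and Trav11d gave 11.4%, 10.8%, 14.4% and 13.4% in NKT-like cells and 2.06%, 1.02%, 0.279% and 0.322% in CD4 T cells. Trav11 was the most abundant alpha V segment of NKT-like cells in 3 of the 4 libraries and stood behind Trav12-1 in miR-146a-/-. Most NKT-like cells had no Trav11 read, so they cannot be called invariant NKT cells from these data and keep the name of their rule.

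The beta chain was read far more completely, with a V segment in 98.4%, 97.1%, 98.9% and 98.1% of NKT-like cells. Trbv13-2, the main beta segment of mouse NKT cells, was found in 60.6%, 57.3%, 55.7% and 48.1% (thinned: 55.0%, 51.5%, 48.9% and 43.3%). CD4 T cells carried it in 45.4%, 34.6%, 27.4% and 28.1%, and B cells in 1.42%, 0.570%, 0 and 0.270%. Trbv29 was found in 10.8% (9.04 to 12.8), 13.6% (7.64 to 21.8), 22.7% (14.5 to 32.9) and 23.1% (15.4 to 32.4), and Trbv1 in 10.5%, 9.71%, 5.68% and 9.62%. Together, 75.9%, 75.7%, 78.4% and 74.0% of NKT-like cells carried at least 1 of these 3 segments, beside 56.0%, 42.3%, 40.7% and 38.3% of CD4 T cells. The summed share was thus similar in all 4 libraries, while Trbv29 was higher in miR-146a-/- and DKO than in young WT. CD4 T cells carried Trbv29 in 5.73%, 5.49%, 13.4% and 5.11%, so it was also higher in those of miR-146a-/-. Trbv13-1, which lies outside the canonical NKT set, was read in 16.9%, 13.6%, 14.8% and 16.3%. CD4 T cells carried it in 11.0%, 6.59%, 13.1% and 6.38%. A higher share than in CD4 T cells was thus not limited to the canonical segments, though in miR-146a-/- the gap was small. Conventional T cells use Trbv13-2 too, and whether the high share in young CD4 T cells comes from NKT cells among them was not tested.

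**Figure D2:**
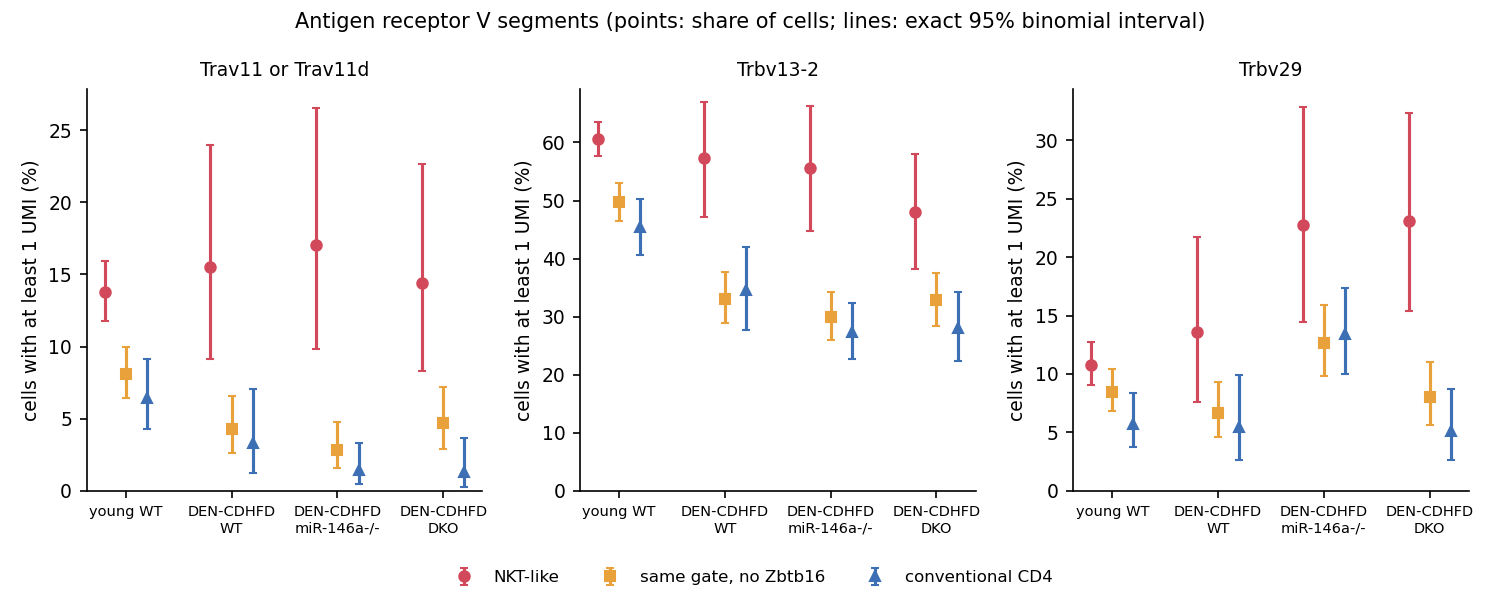
Share of cells with at least 1 UMI of Trav11 or Trav11d, Trbv13-2 and Trbv29 (vertical axes, %) in NKT-like cells, in cells of the same rule without Zbtb16 and in conventional CD4 T cells of each library, with exact 95% binomial intervals as lines. NKT-like cells stand highest in each library, for Trav11 or Trav11d between 13.8% and 17.0%.

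Segments of other Zbtb16-expressing T cells were looked for too. Trav1, the alpha segment of MAIT cells, was found in 1.08%, 5.83%, 4.55% and 0.962% of NKT-like cells, against 1.15%, 1.10%, 0.570% and 2.13% of CD4 T cells. It made up 1.72%, 7.73%, 6.88% and 1.91% of alpha V segment UMIs in NKT-like cells, from 12, 6, 4 and 1 cells. Its joining partner Traj33 gave a single UMI, in DKO. No gene of this pair passed the limit for ratios. Traj18 also gave only 1 UMI in young WT and 1 in miR-146a-/-, so Traj18 and Traj33 were hardly read in these cells. Constant regions of the gamma chain were read often. A UMI of Tcrg-C1, Tcrg-C2 or Tcrg-C4 lay in 53.0%, 45.6%, 62.5% and 59.6% of NKT-like cells. CD4 T cells carried one in 24.1%, 13.7%, 8.83% and 11.5%, and B cells in 1.92%, 1.42%, 0.625% and 1.75%.

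Of the 5 markers given for these cells, Zbtb16 and Cd3e chose them and are a description only. Zbtb16 stood at 258, 211, 213 and 214 CPM, and Cd3e, the signalling chain of the T cell receptor, at 1121, 1053, 1139 and 1119 CPM. The other 3 markers were not part of the rule. Cxcr6, the receptor that retains NKT cells in the sinusoids, was at 901, 730, 527 and 549 CPM, against 439, 332, 401 and 288 CPM in CD4 T cells. It was found in 96.1%, 94.2%, 93.2% and 86.5% of NKT-like cells (thinned: 86.7%, 74.8%, 76.1% and 70.2%) and in 3.67%, 3.13%, 0.833% and 3.10% of B cells. Cd40lg, the ligand by which T cells activate B cells and dendritic cells, was at 294, 214, 221 and 176 CPM, against 246, 185, 84.5 and 118 CPM in CD4 T cells. Both genes were thus above the CD4 level in each library, and neither crossed 2-fold between neighbouring conditions.

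Il4 was the marker that varied most. It stood at 206, 98.2, 27.5 and 47.0 CPM, against 73.5, 9.56, 3.40 and 4.31 CPM in CD4 T cells. The share of NKT-like cells with an Il4 UMI was 58.0%, 29.1%, 15.9% and 23.1% (thinned: 32.0%, 11.7%, 5.68% and 12.5%), beside 0.833%, 0, 0 and 0 of B cells. Il4 was highest in young WT by CPM, by share and by thinned share. By CPM and by the unthinned share it was lower in DEN-CDHFD WT and lowest in both miR-146a-deficient libraries, while the thinned share of DKO was not below that of DEN-CDHFD WT. It fell past 2-fold from young WT to DEN-CDHFD WT (log2 ratio -1.06) and again from DEN-CDHFD WT to miR-146a-/- (-1.81), while DKO against miR-146a-/- gave 0.76. CD4 T cells fell in the same 2 comparisons, from 73.5 to 9.56 and then to 3.40 CPM. The lower Il4 was thus not confined to NKT-like cells. Among the NKT-like cells with Trav11 or Trav11d alone, the log2 ratio of DEN-CDHFD WT to young WT was 0.04, so the fall was not seen in these few cells. Ifng, the type 1 cytokine, was at 382, 239.8, 172 and 196 CPM and passed 2-fold in no comparison. Both cytokines were found in the same cell in 37.6%, 21.4%, 6.82% and 11.5% of NKT-like cells (thinned: 13.7%, 6.80%, 0 and 2.88%, the 0 being of 88 cells) and in no B cell of any library. CD4 T cells carried both in 15.6%, 2.75%, 0.855% and 0.851% (thinned: 5.50%, 1.10%, 0 and 0.426%, the 0 being of 351 cells). Their unthinned shares were lower in each library and were also highest in young WT.

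NKT cells are divided into subsets by their lineage factors, and many cells here carried those of both NKT1 and NKT2. Tbx21 (T-bet), which drives the NKT1 fate, was at 278, 219, 240 and 218 CPM and found in 81.3%, 76.7%, 71.6% and 73.1% of cells. Gata3, the NKT2 factor, was at 93.9, 91.6, 82.4 and 83.3 CPM and found in 50.3%, 52.4%, 48.9% and 44.2% of cells, and both factors were found together in 41.1%, 42.7%, 33.0% and 33.7%. Il17a, the cytokine of NKT17 cells, was near 0, at 0.203, 5.66, 0 and 0 CPM. By CPM and by share of cells, Tbx21 stood above Gata3 in every library. The summed level of the 10 NKT1 genes was 4822, 4757, 5307 and 4743 CPM, with Nkg7 the most abundant, and 0 of 10 passed 2-fold in any of the 3 comparisons (median log2 ratios -0.00, 0.04 and -0.13). The 9 NKT2 genes summed to 846, 685, 488 and 501 CPM, and their only calls were Il4 in both comparisons above and Plac8, which fell from miR-146a-/- to DKO (103 to 50.2 CPM). Of 10 NKT17 genes, Tmem176a and Tmem176b alone passed the limit on level, and neither crossed 2-fold. None of the 5 follicular helper genes passed that limit, and of the 6 regulatory genes Ctla4 was at 31.7, 73.6, 31.0 and 16.02 CPM, past 2-fold higher in DEN-CDHFD WT than in young WT and lower in miR-146a-/- than in DEN-CDHFD WT.

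Transcription factors and signalling genes of the NKT lineage differed little. None of 14 NKT transcription factors crossed 2-fold in any comparison, with 11, 10 and 10 passing the limit on level (medians -0.09, 0.11 and -0.01). Id2 was the most abundant, at 981, 999.7, 1060 and 1006 CPM, and Tcf7 was at 113, 119.9, 97.9 and 88.7 CPM. Of 8 genes of the SLAM and SAP pathway, which NKT cells need to mature, 5 passed the limit in each comparison and 0 crossed 2-fold. Sh2d1a, which encodes SAP, was at 134, 132, 136 and 176 CPM. Of 16 cytokine receptors, 13, 12 and 12 passed, and Il2ra alone crossed 2-fold, lower in DEN-CDHFD WT (33.0 CPM) than in young WT (77.4 CPM). Il2rb, which carries the IL-15 signal that keeps NKT1 cells alive, was at 767, 777, 801 and 733 CPM.

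**Figure D3:**
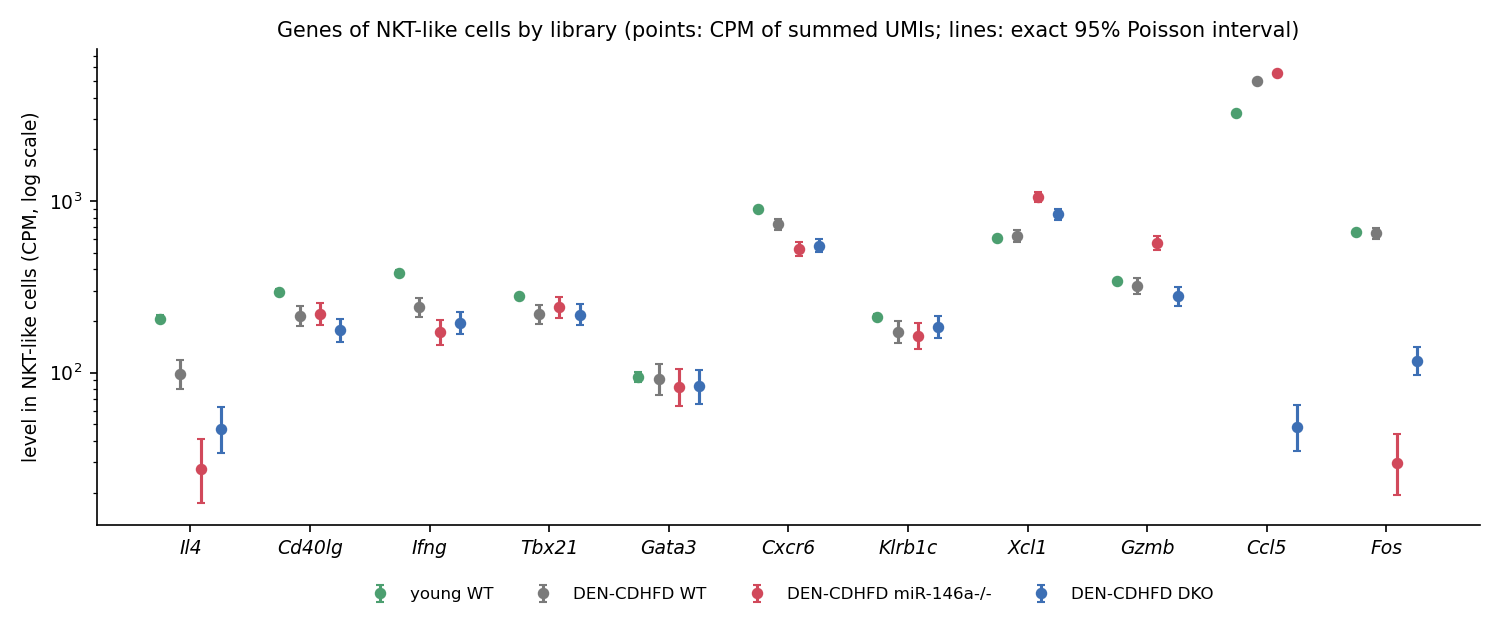
Level of 11 genes in NKT-like cells (vertical axis, CPM on a log scale), with 1 point per library and lines for the exact 95% Poisson interval. Il4 runs from 206 CPM in young WT to 27.5 CPM in miR-146a-/-, Ccl5 drops to 48.1 CPM in DKO and Fos stands at 29.8 CPM in miR-146a-/-, while Gata3 and Klrb1c stay close together.

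Set beside conventional CD4 T cells of the same library, NKT-like cells had more of several natural killer receptors, a trait that gamma-delta T cells shared. Of 3279 genes at a level to be compared in each of the 4 libraries, 31 (0.945%) were past 2-fold higher in all 4 and 29 (0.884%) past 2-fold lower in all 4. These cells differ from the CD4 T cells by the rule in Zbtb16, and Cd4 itself chose the comparison cells, so its lower level is no finding. Of the 15 genes that lay highest in the library where their ratio was smallest, 7 were NK receptor genes: Klra9, Klrc2, Klrk1, Klrc1, Klrb1c, Klre1 and Klrd1. Klrk1 (NKG2D) was at 382, 402, 386 and 367 CPM, against 134, 72.3, 20.03 and 45.4 CPM in CD4 T cells. Klrb1c, which encodes NK1.1, was at 211, 173, 164 and 185 CPM, against 78.6, 19.7, 13.2 and 45.0 CPM. The level in NKT-like cells hardly varied, and the ratio was widest in miR-146a-/-, where the CD4 level was lowest. Both receptors were higher still in NK cells, at 887, 785, 805 and 811 CPM for Klrk1. Gamma-delta T cells had Klrk1 at 638, 483, 349 and 582 CPM and Klrb1c at 331, 243, 273 and 418 CPM, so these receptors do not set NKT-like cells apart from them. The Klra and Klrc families hold near-identical copies, so counts of single members are uncertain.

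The other genes of that group were not all shared with NK cells. Clnk and Samd3 were higher in NK cells of every library. Clnk was at 78.7, 54.8, 122 and 55.6 CPM in NKT-like cells, against 223, 206, 250 and 250 CPM in NK cells. Satb1, a chromatin organiser of T cells, was at 381, 289, 244 and 270.3 CPM in NKT-like cells, 147, 98.6, 34.0 and 59.8 CPM in CD4 T cells, and 177, 191, 149 and 145.8 CPM in NK cells. Kcnq5, a potassium channel, was at 403, 316, 377 and 306 CPM, against 166, 173, 174 and 164 CPM in NK cells. Ckb, the brain-type creatine kinase, was at 266, 155, 142 and 118 CPM, against 83.6, 75.7, 72.7 and 56.9 CPM in NK cells. These 3 genes were thus higher in NKT-like cells than in NK cells of every library, while their order against CD4 T cells was part of their choice. Gamma-delta T cells were lower too, with Kcnq5 at 212, 174, 67.5 and 102 CPM and Ckb at 152, 48.6, 55.8 and 30.4 CPM. Satb1 was at 270, 276, 164 and 173 CPM there, close to NKT-like cells in DEN-CDHFD WT. Ly6c2, a surface protein of memory T cells and monocytes, was at 563, 1413, 775 and 1249 CPM, against 233, 273, 96.4 and 124 CPM in CD4 T cells and 533, 1641, 719 and 1098 CPM in gamma-delta T cells.

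Of the 10 genes lowest against CD4 T cells, 5 were checkpoint or costimulatory receptors: Tnfrsf4, Pdcd1, Lag3, Tigit and Ctla4. Pdcd1 (PD-1) was at 13.0, 17.0, 44.2 and 42.7 CPM, against 103, 183, 307 and 269 CPM in CD4 T cells. Tnfrsf4 (OX40) was at 7.11, 5.66, 8.36 and 26.7 CPM, against 89.8, 148, 238 and 242 CPM. Fam169b and Cd4 were in the same group, as was Gzmk, a granzyme of memory T cells, at 13.8, 26.4, 8.36 and 14.96 CPM against 68.2, 304, 894 and 690.3 CPM. Genes were ranked by their library nearest to 0, so a lower level in all 4 libraries was part of their choice. Pdcd1 was at 7.36, 36.2, 61.0 and 76.7 CPM in NK cells. In gamma-delta T cells it was at 31.7, 27.8, 126 and 101 CPM. Both populations were also below CD4 T cells for Ctla4. A level under that of CD4 T cells was thus not particular to NKT-like cells for Pdcd1 and Ctla4. Pdcd1 was still lower in NKT-like than in gamma-delta T cells of every library. Tigit was at 15.6, 46.3, 62.1 and 39.5 CPM in NKT-like cells, against 75.0, 149, 154 and 199 CPM in NK cells. Lag3 was lower in NKT-like cells than in both populations in every library. Tnfrsf4 and Ctla4 were higher in NKT-like than in NK cells of every library. Lag3 in NK cells of young WT, at 59.2 CPM, was instead near the 61.0 CPM of CD4 T cells. Slamf6 and Ccr7, the lymph node homing receptor, were also lower, with Slamf6 at 23.4, 17.9, 20.3 and 19.2 CPM against 107, 111, 93.4 and 111 CPM. Conventional CD4 list genes other than these, such as Cd2, crossed 2-fold between conditions in 0 of 4 cases in each comparison.

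**Figure D4:**
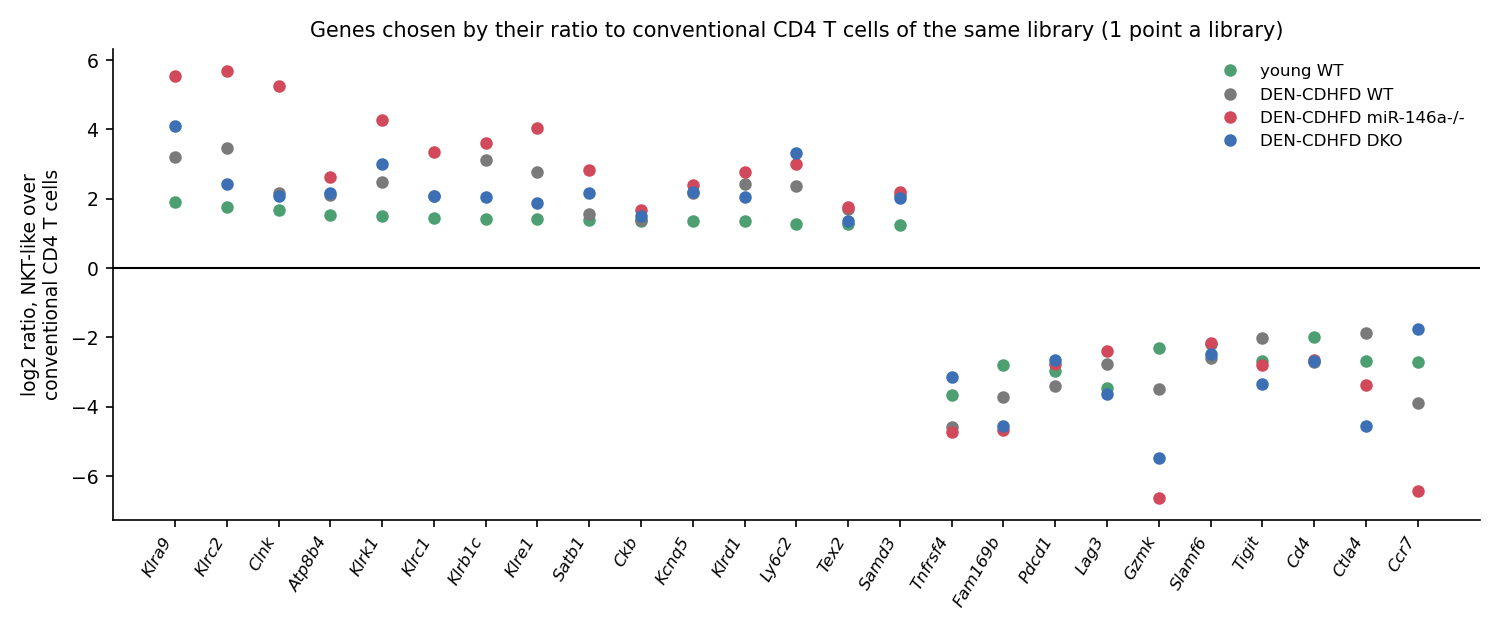
Log2 ratio of NKT-like cells over conventional CD4 T cells of the same library (vertical axis) for the 15 highest and 10 lowest genes, with 1 point per library. Genes are placed by their library nearest to 0, which is 1.90 for Klra9, the highest, and -3.15 for Tnfrsf4, the lowest, and Cd4 helped to choose the comparison cells.

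Between DEN-CDHFD WT and young WT, the comparison that joins age, carcinogen and diet, NKT-like cells carried more cell-cycle transcripts and less Il4. The lower Il4 was shared by CD4 T cells. A gene was given a ratio if either library reached both 50 CPM and 20 UMIs, ratios carry a prior of 0.5 counts, and called means past 2-fold. Of 3702 genes, 51 were higher (1.38%) and 24 lower (0.648%), with a median log2 ratio of 0.03 over all genes. With TMM scaling the split was 40 higher and 32 lower. Cell-cycle genes stood out, with 6 of 7 past 2-fold higher and a median of 1.16 (0.40 in CD4 T cells). Their summed level was 503, 1079.9, 905 and 763 CPM. Mki67, a proliferation antigen, was at 85.6, 212, 130.1 and 139.9 CPM, and Top2a, which untangles DNA for mitosis, at 70.2, 179, 134 and 115 CPM.

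A UMI of Mki67 or Top2a lay in 12.7%, 30.1%, 14.8% and 25.0% of NKT-like cells (thinned: 7.92%, 18.4%, 9.09% and 18.3%). B cells carried one in 10.2%, 20.1%, 10.8% and 13.6%, some of which may cycle themselves. UMIs of both genes in the same cell, a stricter sign of a cycling cell, were found in 4.68%, 15.5%, 10.2% and 9.62%. CD4 T cells carried Mki67 or Top2a in 22.5%, 41.2%, 35.9% and 35.3%. Thinned, the CD4 shares were 13.3%, 23.1%, 19.4% and 17.4%, and for both genes together, unthinned, 8.94%, 13.2%, 10.8% and 14.5%. NKT-like cells with these transcripts were thus more frequent in DEN-CDHFD WT than in young WT by each measure, and their order against CD4 T cells depended on the measure. For miR-146a-/- against DEN-CDHFD WT and for DKO against miR-146a-/-, 0 of 7 cell-cycle genes passed 2-fold (medians -0.20 and -0.30). Pclaf (184 against 57.9 CPM) and Diaph3 (64.2 against 21.6 CPM), both linked to cell division, were among the 10 largest rises of the comparison.

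Some killer receptors and chemokines were also higher in DEN-CDHFD WT than in young WT. Klra7 went from 37.2 to 168 CPM and Klra9 from 53.4 to 172 CPM, and in CD4 T cells their log2 ratios were -0.50 and 0.40. These were 2 of 9 NK receptor genes past 2-fold, with a median of 0.46 (-0.88 in CD4 T cells), and the summed level of the list was 1526, 1973, 1754 and 1666 CPM. Of the chemokines, Ccl3 rose from 27.0 to 86.8 CPM and Ccl4 from 127 to 331 CPM, and both encode inflammatory chemoattractants. Ccl3 rested on 9 cells, 1 of which held 38.0% of its UMIs, and its log2 ratio turned to -2.30 in members with Trav11 or Trav11d. The membrane proteins Ifitm2 (34.5 to 150.1 CPM) and Ifitm3 (59.8 to 169 CPM), which restrict viral entry, and the actin regulator Capg (85.1 to 237 CPM) completed the group, while the interferon-stimulated list as a whole had 0 of 12 past 2-fold. Ifitm2 and Ifitm3 rose in CD4 T cells too, with log2 ratios of 1.93 and 1.58. In DEN-CDHFD WT they lay in 19 and 28 NKT-like cells, with 25.8% and 26.3% of UMIs in 1 cell each. Apoe and Lyz2 were decided by a single cell each, which held 90.7% and 54.4% of their UMIs in DEN-CDHFD WT.

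The costimulatory receptor Tnfrsf9 (40.6 to 92.5 CPM) and the checkpoint receptor Ctla4 crossed 2-fold upward, 2 of 8 in their list. Among the falls were Hspa1b, an inducible heat-shock protein, from 1043 to 432 CPM, and Mmp9, a matrix protease, from 175 to 64.2 CPM. Rrad, Trf, Cd72, Atp8a2 and Irgm2 fell as well, along with Polr2l, Gm15494 and AW011738. In members with Trav11 or Trav11d the log2 ratio of Trf turned to 0.89. Of the 10 largest rises and 10 largest falls, 4 and 4 were also past 2-fold in CD4 T cells of the same libraries. Immediate-early genes, which respond to stimulation and to cell handling alike, had 1 of 15 higher (Nr4a2) and 1 lower (Jun).

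Between DEN-CDHFD miR-146a-/- and DEN-CDHFD WT, which share the treatment and differ in genotype, the gene list with the most calls was the immediate-early genes, lower without miR-146a. Of 3799 genes, 21 were higher (0.553%) and 58 lower (1.53%), with a median log2 ratio of -0.02. Of the 10 largest falls, 6 were Apoe (-5.01), H2-Eb1 (-4.51), H2-Ab1 (-3.93), Cd79a (-3.80), H2-Aa (-3.69) and Cd74 (-3.66), each with 40.7% to 90.7% of its DEN-CDHFD WT UMIs in 1 cell. The other 4 were Fos, Fosb, Nr4a3 and Nr4a1. Of 15 immediate-early genes 0 were higher and 11 lower, with a median of -1.48. Fos was at 658, 648, 29.8 and 118 CPM, and Jun at 1285, 621, 195 and 270.3 CPM. Their proteins pair as the AP-1 factor that T cell receptor signals activate. Dusp1 (1517, 1078, 334 and 804 CPM) and Nr4a1 (204, 227, 51.3 and 101 CPM), the gene of Nur77, were likewise lowest in miR-146a-/-. Fos UMIs lay in 61.6%, 78.6%, 17.0% and 30.8% of NKT-like cells, beside 82.4%, 86.8%, 53.1% and 58.1% of B cells.

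This difference was not confined to NKT-like cells. The summed level of the 17 immediate-early genes was 11646, 9212, 4086 and 5445 CPM in NKT-like cells, 9134, 8364, 5192 and 5033 CPM in CD4 T cells, and 10605, 9562, 5141 and 5656 CPM over all kept cells. The median ratio of the list in CD4 T cells was -0.70. These genes are known to respond to how long and how warm tissue is handled, and the libraries were made from separate livers, so genotype and handling cannot be told apart. From miR-146a-/- to DKO, 2 of 12 were higher (Fos and Dusp1; median 0.51).

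A list that joins miR-146a targets with NF-kB genes had no gene past 2-fold higher without miR-146a. Of its 15 genes, 13 passed the limit in the comparison of miR-146a-/- with DEN-CDHFD WT, with 0 higher and 2 lower (Tnfaip3 and Nfkbia, both NF-kB feedback inhibitors that respond early to stimulation), and a median of -0.07. The list summed to 1981, 2372, 1794 and 1943 CPM. Irak1, a classic target, was at 52.5, 47.2, 70.4 and 56.6 CPM, and Traf6, its partner, at 26.0, 34.0, 20.3 and 36.3 CPM. Relb was at 80.1, 92.5, 87.2 and 96.1 CPM. Irak1 and Relb did not cross 2-fold, Traf6 was under the limit for a ratio, and a 5' transcript count does not measure translation, which miRNAs also repress.

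Effector genes differed in a mixed way in miR-146a-/-. Il4 fell, as given above, and Csf2, a myeloid growth factor, fell from 52.9 to 25.1 CPM, so 2 of 8 cytokines were lower and 0 higher. Klf2, which keeps T cells in circulation, fell from 645 to 265 CPM (628 in young WT and 498 in DKO), and Cd69 from 302 to 148 CPM. Rgs2 and Cd69 were the 2 of 8 tissue residence genes to fall. Ifit3, an interferon-induced gene, was at 36.5, 9.44, 50.1 and 27.8 CPM, the only 1 of 13 in its list past 2-fold, and it rested on 9 and 7 cells, with a ratio of -0.12 at 2 or more Zbtb16 UMIs. Xcl1, the ligand of cross-presenting dendritic cells, was at 611, 625, 1049 and 834 CPM, and Itga4, the homing integrin chain, at 119, 154, 285 and 249.98 CPM, both short of 2-fold between neighbouring conditions. Klra7 fell to 69.2 CPM.

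Some of the largest ratios of miR-146a-/- came from single cells. Ccl1 had 395 UMIs in miR-146a-/-, all in 1 cell, and 0 in DEN-CDHFD WT. Gzma, a granzyme, was at 153 and 386 CPM, with 66.6% of its UMIs in miR-146a-/- in 1 cell. Ncr1, the NK cell receptor NKp46, had 95 UMIs in 8 cells against 33 in 6. Without NKT-like cells that had an Ncr1 UMI, a choice made after seeing the data, the Gzma ratio turned from 1.33 to -2.85. The rises of Trnt1, Ccdc136, Mmp9, Zcchc18 and Atp8a2 were spread over 25 to 54 cells, and Mmp9 (161 CPM) and Atp8a2 (213 CPM) were again near their young WT levels. In members with Trav11 or Trav11d, Zcchc18 turned to -1.08 and Atp8a2 to -0.33. Of the 10 largest rises 0, and of the 10 largest falls 4, were also past 2-fold in CD4 T cells.

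Between DEN-CDHFD DKO and miR-146a-/-, the comparison that adds the loss of Ccl5, the deleted gene was by far the lowest. It shares the miR-146a-/- library with the comparison before it, as that one shares DEN-CDHFD WT with the first, so a library that stands apart enters both with opposite sign. Of 3715 genes, 32 were higher (0.861%) and 26 lower (0.700%), with a median log2 ratio of -0.04. Of 5 chemokines 3 were lower. Ccl5 was the deleted gene, Ccl1 rested on 1 cell in miR-146a-/- and 2 in DKO, and Ccl3 fell from 139.7 to 39.5 CPM in 8 and 9 cells, with 60.7% and 62.2% of UMIs in 1 cell each. The Ccl3 ratio turned from -1.81 to 2.97 with at least 2 Zbtb16 UMIs and to 1.79 without members with Ncr1, and that of Ccl1 turned to 7.11 and 7.002. Ccl4 was at 628 and 550.2 CPM, in 14 and 12 cells, with 65.0% and 68.3% of UMIs in 1 cell each. Gzmb, a granzyme, fell from 567 to 278 CPM, 1 of 6 cytotoxic genes, and Nkg7 was at 1552 and 1503 CPM. S1pr1, the receptor for tissue exit, rose from 16.7 to 50.2 CPM, and Tnfrsf9 (4-1BB) from 65.7 to 132 CPM. Of 13 interferon-stimulated genes 0 crossed 2-fold, with a median of -0.46, and Usp18, an interferon-induced regulator outside that list, fell from 54.9 to 17.1 CPM. Ppm1m, Rrm2, Clnk, Ccdc136, Gzmc and Ncr1 made up the rest of the falls, with 63.7% of Gzmc UMIs in miR-146a-/- in 1 cell. Gzmc turned to 4.75 and 2.50 under the same settings, and Ncr1 to 1.27 with at least 2 Zbtb16 UMIs and to 4.72 in members with Trav11 or Trav11d.

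The largest rises in DKO were genes of antigen-presenting cells. Cd74 was at 777, 916, 71.6 and 723 CPM and H2-Aa, a class II chain, at 204, 285, 21.5 and 155 CPM, so the miR-146a-/- library stood low against each of the others. H2-Eb1 and H2-Ab1 followed the same order. In DEN-CDHFD WT a single cell held 40.7% of Cd74 UMIs and 59.9% of H2-Aa UMIs, and in DKO 46.4% and 46.9%. Members with UMIs of other lineages numbered 141, 14, 9 and 25 (12.7%, 13.6%, 10.2% and 24.0%). Without them, the Cd74 ratio was -0.59 for miR-146a-/- against DEN-CDHFD WT, in place of -3.66, and 0.88 for DKO against miR-146a-/-, in place of 3.32. H2-Aa went from -3.69 to -0.54 and from 2.82 to 0.17, and H2-Ab1 from -3.93 to -0.38 and from 3.25 to 1.46. H2-Eb1 went from -4.51 to -2.08, but was at 4.03 in place of 3.82 for DKO. With at least 2 Zbtb16 UMIs, H2-Aa turned to 1.14 and H2-Ab1 to 0.53 for miR-146a-/- against DEN-CDHFD WT. Those members were picked by transcripts of other cells, so the source of the class II UMIs was not tested. Ctsh, Fcgr4, C1qb, Spi1 and Cd79a, genes of myeloid and B cells, rose with them. In DKO, 59.7% of Cd79a UMIs lay in 1 of 2 cells, and 53.7% of Fcgr4 UMIs in 1 cell. Without members with UMIs of other lineages, Fcgr4, C1qb, Spi1 and Cd79a were at or under 3 counts in both libraries. Gm47283 was spread over 46 cells. Of the 10 largest rises and the 10 largest falls in DKO, 1 and 1 were also past 2-fold in CD4 T cells. Cd74, H2-Aa, H2-Ab1, H2-Eb1 and Cd79a were past 2-fold the opposite way there, with log2 ratios of -1.37, -1.71, -1.45, -1.69 and -1.16, as were Gzmc, Ncr1 and Clnk at 2.32, 1.49 and 2.03.

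**Figure D5:**
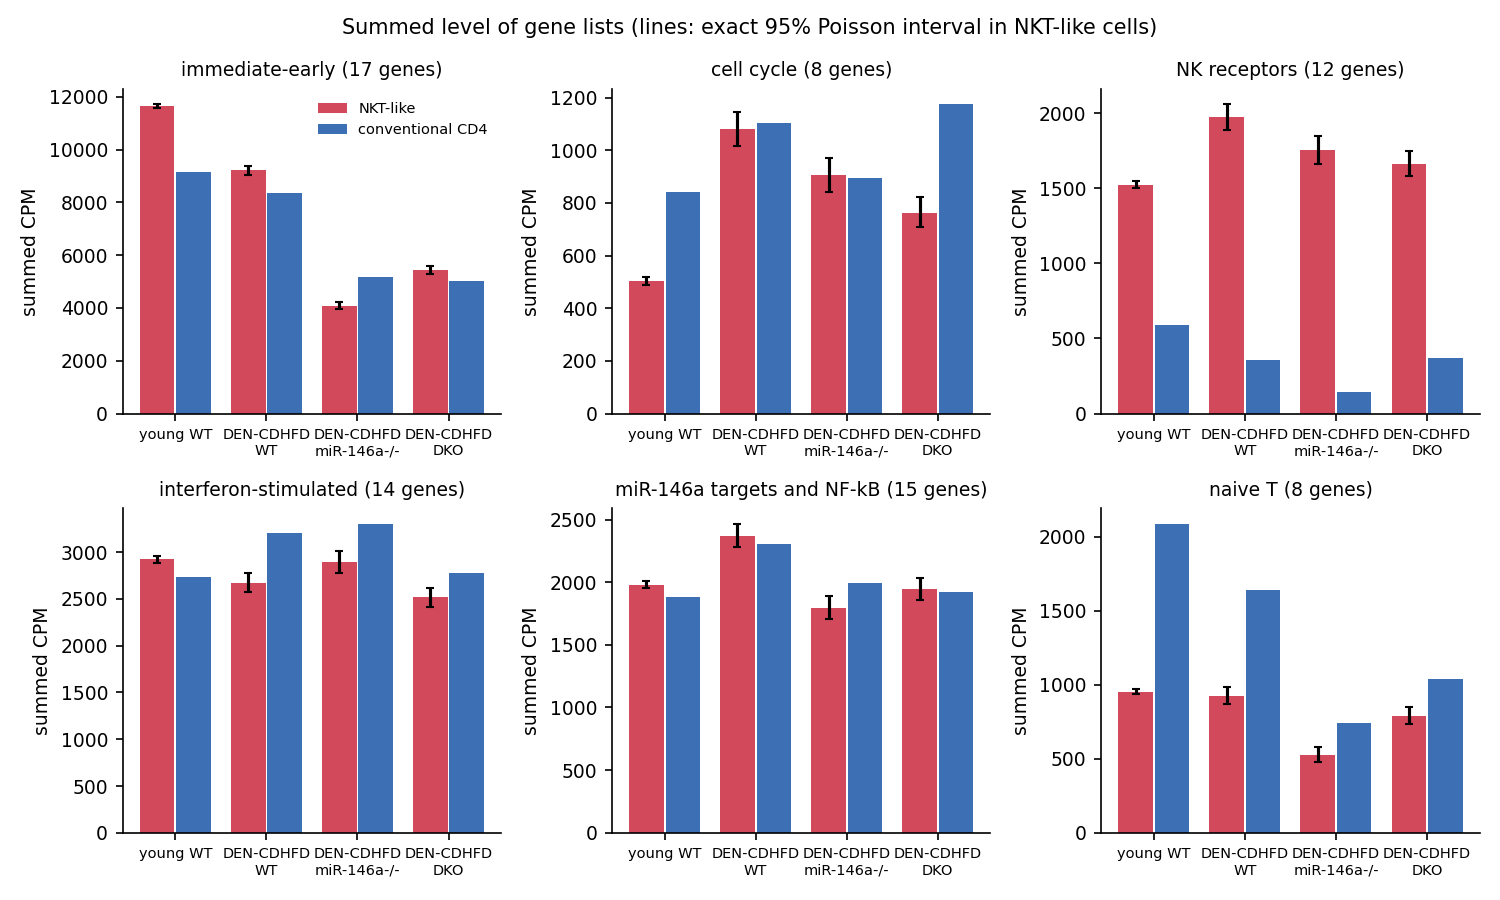
Summed level of 6 gene lists (vertical axes, CPM) in NKT-like cells, with exact 95% Poisson intervals as lines, and in conventional CD4 T cells, by library. The immediate-early list stands at 4086 CPM in miR-146a-/- NKT-like cells against 9212 CPM in DEN-CDHFD WT, and the NK receptor list lies above the CD4 level in every library.

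Markers of other cell types were followed in every library, and the part of each list in the results was not tested beyond leaving out members with UMIs of other lineages. The B cell list, of which T cells also express Ighm germline transcripts at a low level, summed to 529, 248, 149 and 279 CPM, led by Ighm (369.8, 125, 104 and 121 CPM), with 8 of 8 genes detected. The macrophage and monocyte list summed to 808, 1672, 959 and 1563 CPM, led by Ly6c2, which T cells express too. Of its 13 genes 12, 9, 8 and 9 were detected, Csf1r was at 0 by the rule, and the Kupffer cell markers Clec4f, Vsig4 and Marco were at 0 in the treated libraries. The neutrophil list summed to 265, 64.2, 172 and 94.0 CPM, led by Mmp9, with S100a8 and S100a9 at 0 in DEN-CDHFD WT. Dendritic markers were led by Bst2, broadly expressed in lymphocytes, with 0 of 1 past 2-fold and a sum of 181, 141, 155 and 151 CPM.

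The NK cell list summed to 364, 311, 589 and 623 CPM, led by Gzma, with 10, 7, 8 and 9 of 10 genes detected. Its calls were Klra3 (higher in DEN-CDHFD WT and DKO, lower in miR-146a-/-), Ncr1 and Gzma, all of which NKT cells can express. Ncr1 UMIs lay in 5.94%, 5.83%, 9.09% and 4.81% of NKT-like cells, beside 4.25%, 3.13%, 2.08% and 4.18% of B cells. The share lay farthest above that of B cells in miR-146a-/-. Type 1 innate lymphoid genes, led by Inpp4b, summed to 1307, 1040.2, 1543 and 1249 CPM, with Ncr1 their only call, and of the type 2 list Gata3 alone reached the limit. Of the gamma-delta list, 7 of 10 genes were in the files and Trdc was at 0 by the rule. Tcrg-C1 rose from 34.0 CPM in DEN-CDHFD WT to 91.9 CPM in miR-146a-/-. Hepatocyte genes summed to 10.8, 4.72, 4.78 and 9.61 CPM, led by Alb, endothelial genes to 47.5, 53.8, 23.9 and 37.4 CPM, led by Pecam1, and erythroid and platelet genes to 0.609, 0.944, 0 and 2.14 CPM. None of these last 3 lists had a gene at the limit for ratios.

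The remaining lists moved little. Homing receptors had 0 of 10 past 2-fold in DEN-CDHFD WT against young WT, and besides Klf2, Cd69 and S1pr1 none in the other comparisons. Itga1, which anchors tissue-resident lymphocytes, was at 187, 145, 184 and 146.4 CPM, and Ccr9, the gut homing receptor, at 43.5, 8.50, 17.9 and 20.3 CPM, below the limit. Of the naive T list, Klf2 and S1pr1 were the only calls. Of the 11 genes for mTOR and lipid handling 3, 3 and 2 passed and 0 crossed 2-fold, with Ldha, which makes lactate, at 535, 734, 559 and 563 CPM. The invariant receptor list had 0 of 3 past 2-fold in each comparison (medians -0.09, -0.21 and 0.33), with Trbv29 at 124, 202, 185 and 309 CPM.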

How the data were processed

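The authors aligned the reads and made the count matrices with Cell Ranger 7.0.1 on mm10, according to their processing notes. They deposited raw UMI counts for each of the 4 libraries, which were used here unchanged. The paper names an earlier Cell Ranger version, and its figure legend a slightly lower age of the treated mice. The sample labels and processing notes were followed. Cells with 600 to 6000 genes, at most 5% mitochondrial UMIs and at least 3000 UMIs were used. Members had UMIs of Cd3e, Trac and Zbtb16 and none of Trdc, Cd8a, Cd8b1, Foxp3 or Csf1r. Conventional CD4 T cells met the same rule with Cd4 and without Zbtb16. NK cells had Ncr1 and no Cd3e, Trac or Csf1r, and B cells had at least 2 UMIs of Cd79a and no Cd3e. Members with other lineages had any UMI of a fixed marker list or at least 2 of Lyz2. No doublet caller was run, and doublets were limited by the upper gene limit and by that alternative only. The members and the 36 gene lists were chosen with earlier results of these data known.

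UMIs were summed per library and gene. The log2 ratio uses a prior of 0.5 counts, for genes with 50 CPM or more and 20 UMIs or more in either library. The 10 highest and 10 lowest genes of each comparison were named, and 15 and 10 against CD4 T cells by the library nearest to 0. Intervals are exact Poisson, Clopper-Pearson and Newcombe. Shares were repeated with every cell thinned to 3000 UMIs. The code was tested on simulated data. Python 3.11.15, numpy 2.4.6, pandas 2.3.3, SciPy 1.17.1, matplotlib 3.10.9, R 4.3.3 and edgeR 4.0.16 were used. Some results of single genes are not reported here, which leaves 1 log2 ratio out of the counts of alternatives.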

Additional observations from a re-analysis of the deposited data

How the results depend on the processing

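With 1 library per condition, no difference could be separated from differences between libraries. The share of NKT-like cells in DEN-CDHFD WT minus young WT, -11.1 points, was -4.13 with every cell thinned to 3000 UMIs, -10.05 with no minimum of UMIs, -6.31 with at least 2 Zbtb16 UMIs, -2.09 with Trav11 or Trav11d in place of Zbtb16, -17.9 over cells with Cd3e and -9.67 without members with UMIs of other lineages. Over cells with Cd3e, DKO minus miR-146a-/- was 0.471 points, in place of -0.0595. Thinned, Trav11 or Trav11d was found in 5.04% of NKT-like cells in young WT, 5.83% in DEN-CDHFD WT and 7.69% in DKO. Genes past 2-fold numbered 75, 79 and 58 in the 3 comparisons, 299, 263 and 226 with a minimum of 10 CPM, 136, 181 and 250 with at least 2 Zbtb16 UMIs, and 173, 147 and 154 in members with Trav11 or Trav11d, settings that hold fewer cells.

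Of 589 alternative values of 87 log2 ratios, 442 stayed, 128 moved and 19 changed sign, and 20 more were not given since both libraries were at or under 3 counts. For DEN-CDHFD WT against young WT, members with Trav11 or Trav11d gave 0.044 for Il4, -2.30 for Ccl3 and 0.89 for Trf, and at least 2 Zbtb16 UMIs gave -1.35 for Apoe. For miR-146a-/- against DEN-CDHFD WT, at least 2 Zbtb16 UMIs gave -0.12 for Ifit3, -3.24 for Gzma, 0.53 for H2-Ab1 and 1.14 for H2-Aa. There, Trav11 or Trav11d members gave -1.08 for Zcchc18 and -0.33 for Atp8a2, and leaving out members with Ncr1, chosen after seeing the data, gave -2.85 for Gzma. For DKO against miR-146a-/-, at least 2 Zbtb16 UMIs gave 4.75 for Gzmc, 7.11 for Ccl1, 2.97 for Ccl3 and 1.27 for Ncr1. Without Ncr1 members Gzmc was at 2.50, Ccl1 at 7.002 and Ccl3 at 1.79, and Trav11 or Trav11d members gave 4.72 for Ncr1. The cause was not tested.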

Other observations

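Within young WT, the library with most NKT-like cells, the 392 cells with a Cd4 UMI were compared with the 719 without. Klra7 was at 12.5 CPM with Cd4 and 52.4 CPM without, Ccl4 at 47.6 and 176 CPM, and Il4 at 259 and 173 CPM. Zbtb16 was at 257 and 259 CPM. The order of Ccl4 was not the same in every library: it was at 9.97 and 459 CPM in DEN-CDHFD WT, but at 1639.6 and 125 CPM in miR-146a-/- and 1552 and 176 CPM in DKO, where 1 cell held most of its UMIs. Split by Klrb1c, 672 cells with it and 439 without had Gzma at 323 and 21.0 CPM and Tcf7 at 94.8 and 143 CPM.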
